A study of Mus musculus with 2 samples.

Results

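Ehf is a transcription factor of the ETS family, found mainly in epithelia, and the study mapped its positions on chromatin in the corneal epithelium, the outer cell layer of the eye. Described here are the 1714 Ehf peaks that crowd into a few stretches of the autosomes. The autosomes (chromosomes 1 to 19) were cut into fixed bins of 1 Mb, each peak was placed by its midpoint, and the peaks of bins with 20 or more were taken. Bins that start at or below 3 Mb, next to the satellite-rich chromosome starts, were left out. The 1714 peaks lay in 70 dense bins and made up 11.4% of the 15087 autosomal peaks and 11.1% of the 15384 peaks in the list. Of the 2406 autosomal bins that start above 3 Mb, 2.91% were dense by this rule.

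ETS factors share a DNA-binding domain that recognises a short core sequence, GGAA or GGAT, which occurs very often in any genome. Factors of this family are typically found at promoters and enhancers with open chromatin. Ehf itself belongs to the epithelium-specific branch of the family and is known for regulating genes of differentiated epithelial cells. A peak is a stretch of the genome where the reads of the precipitated chromatin pile up beyond the threshold of a peak caller.

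The tissue was corneal epithelium of wild-type mice aged 2 to 3 months, freed with dispase from whole eyes and pooled over 15 animals before fixation. Sorbitol at 50 mM is recorded for both libraries. Chromatin (24 ug) was precipitated with the antibody ESE-3A (E-15), ESE-3 being another name of Ehf, and sequenced as single-end reads of 50 bp beside an input library made with no antibody. The strain is written as CB6 in 1 label and as C57Bl/6 in another. The peak list comes from 1 ChIP library, so no spread between animals or libraries can be given, and no value of the input was analysed here. The list gives no read counts, so the depth behind a peak is unknown. No genes are assigned, because no annotation or sequence of mm9, the build of the list, was used, and the tissue could not be checked against marker genes.

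The dense bins were chosen by the number of peaks called in them, and widths and scores come from the same peak calls, so all comparisons below describe 1 list and carry no test. Intervals on shares are 95% Wilson intervals, which cover counting error only. Each peak carries a score given by the authors, on a scale that the sources used here do not state. Where bins and stretches are given in Mb, both ends are mm9 positions.

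Most of the genome carried few peaks. The median bin held 5 peaks, with quartiles of 2 and 9, and 227 bins (9.43%) held none. The dense bins had a median of 23 peaks, with quartiles of 21 and 26, against a median of 5 in the other 2336. The means were 24.5 and 5.67 per bin. This contrast was set by the rule. The counts had no gap at the threshold. There were 21 bins with 19 peaks, just outside, and 17 bins with 20, just inside. The peaks just outside had a median score of 81.95 and a median width of 378 bp, and those just inside 86.2 and 390 bp. Of the 70 dense bins, 51 held 20 to 24 peaks, and 7 held 30 or more.

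**Figure D1:**
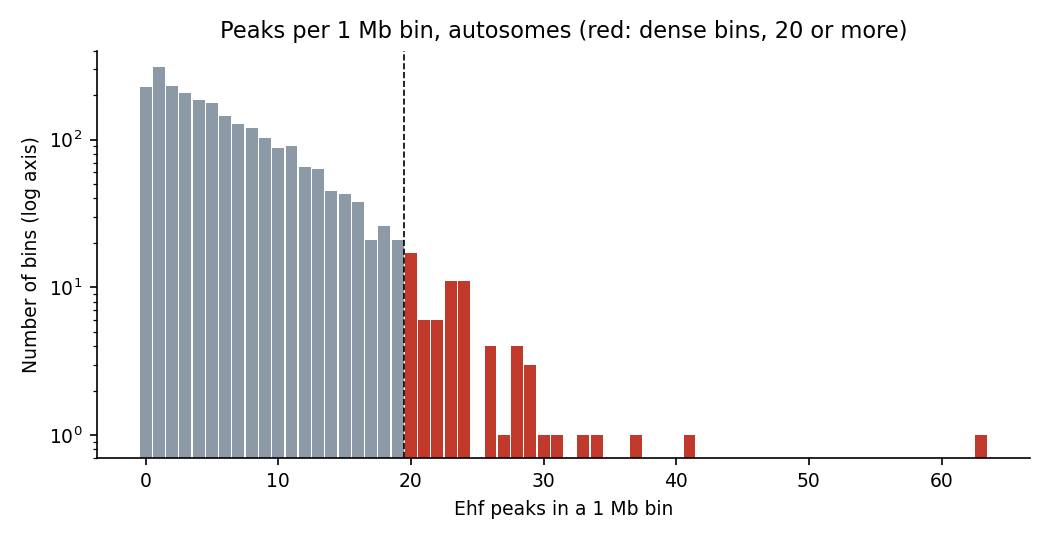
Number of autosomal 1 Mb bins (log axis) by the number of Ehf peaks they hold, for the 2406 bins that start above 3 Mb. Dense bins are red, and the dashed line marks the threshold. The counts thin out without a break at 20 peaks, and only the bins with 41 and 63 peaks stand beyond 40.

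Where the edges of the bins fall decides much of the membership. With the grid moved by 0.5 Mb there were again 70 dense bins, now with 1738 peaks, but only 972 of the 1714 peaks (56.7%) were in both sets, which is 55.9% of the second set. If any window of 1 Mb was allowed, 3596 peaks lay in a window with 20 or more. All 1714 are among them by construction, since each dense bin is such a window. A crowded stretch that is cut by a bin edge can therefore be missing from the 70 bins, and the median score and width of the peaks changed little between these choices.

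Crowding of Ehf peaks was uneven among chromosomes. Chromosome 11 held 13 of the dense bins with 334 peaks, which is 30.8% of its own peaks and 19.5% of all peaks in dense bins. Chromosome 7 followed with 10 dense bins and 235 peaks (24.3% of its peaks), although its overall density of 6.35 peaks per Mb was close to that of chromosome 9, at 6.52 per Mb, which had no dense bin. Chromosome 4 had 8 dense bins with 179 peaks, and chromosomes 15 and 17 had 6 each, with 143 and 132 peaks. Chromosomes 3, 9, 13, 14 and 16 had none. Their fullest bins held 18, 17, 19, 17 and 18 peaks. Chromosome 9 did hold a bin of 26 peaks, from 3 to 4 Mb, the only bin of 20 or more that the rule on chromosome starts removed.

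**Figure D2:**
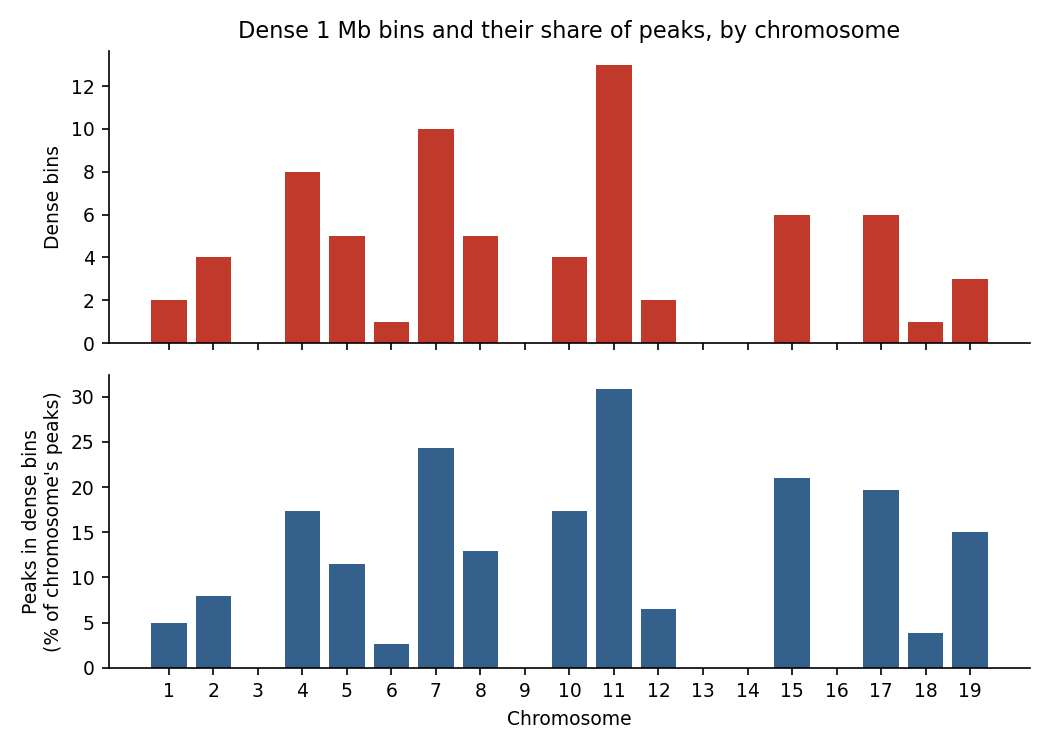
Number of dense 1 Mb bins on each autosome (upper bars) and the share of each chromosome's peaks that lie in them (lower bars, percent). Chromosome 11 leads both with 13 bins and 30.8%, followed by chromosome 7 with 10 bins and 24.3%, while chromosomes 3, 9, 13, 14 and 16 are empty.

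Many dense bins, but not those of every chromosome, lay towards the far ends of the chromosomes, which in the mouse are the ends away from the centromere. Of the 70, 40 (57.1%) had their middle in the last 25% of the chromosome's length, against 25.2% of the other bins. Within 10 Mb of the far end lay 16 (22.9%), against 7.83%. Of those 16, 6 belong to 1 stretch of chromosome 11, from 115 to 121 Mb. The first 25% held 10 dense bins, and the stretches from 25 to 50% and from 50 to 75% held 11 and 9. With a run of neighbouring bins taken as 1 place, 25 of 51 places (49.0%) were in the last 25%. On chromosome 4, 7 of the 8 dense bins lay from 132 Mb on, and the last of them, with 20 peaks, is the end piece of the chromosome and only 0.630 Mb long. Some chromosomes showed another layout. On chromosome 17 all 6 dense bins had their middle between 26.8 and 59.3% of its length. On chromosome 1 the 2 dense bins lay at 18.5 and 37.8%. Of the 4 on chromosome 10, only the bin from 126 to 127 Mb was in the last 25%. Chromosome 7 had 7 of its 10 dense bins before 32 Mb, the first from 4 to 5 Mb with 23 peaks.

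**Figure D3:**
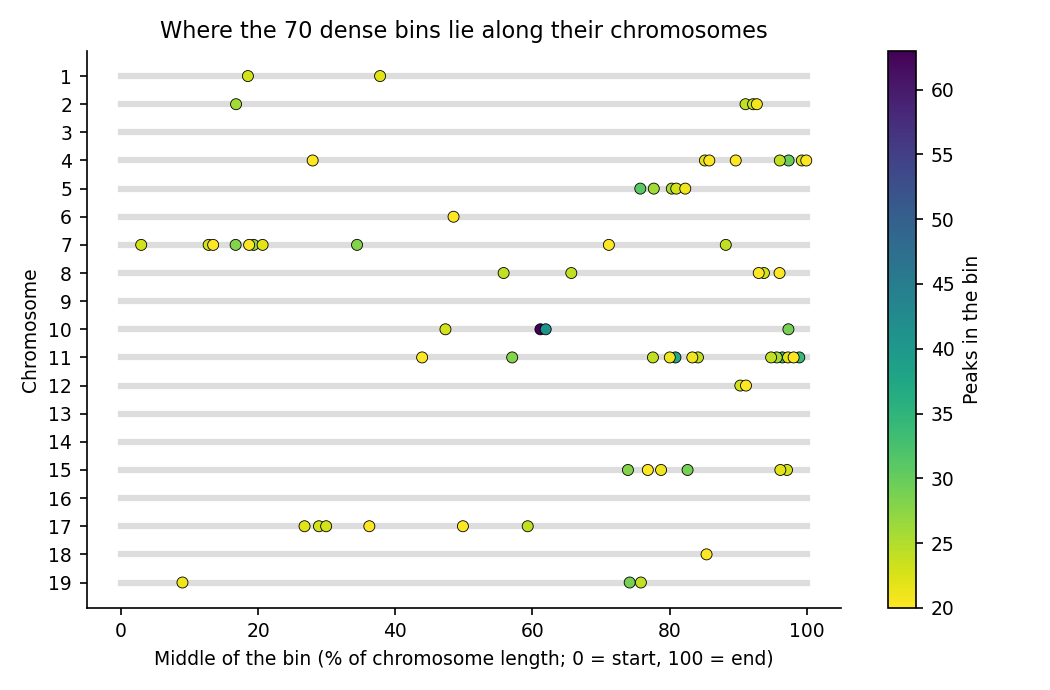
Middle of each of the 70 dense bins as a percent of its chromosome's length (horizontal axis, 0 at the start, 100 at the end), by chromosome (vertical axis), coloured by the number of peaks. On chromosomes 2, 4, 8, 11 and 12 dense bins lie mostly near the right end, and on chromosome 7 most lie on the left. The 2 darkest points, on chromosome 10, are the bins with 63 and 41 peaks.

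Dense bins often adjoined each other. There were 15 runs of neighbouring dense bins, 14 of them pairs and 1 of 6 bins, and together they took in 34 bins and 865 peaks. The other 36 dense bins stood alone. The runs and lone bins had 101 flanks, a flank being the bin just before or after. A bin between neighbouring places was counted once for each, so there were fewer distinct bins than flanks. The flanks also include a bin at the start of chromosome 7 that the rule left out. Their median was 12 peaks (quartiles 6 and 16). Of the 101 flanks, 63 (62.4%) held 10 or more, against 21.4% of the other bins that start above 3 Mb. A few runs nevertheless had nearly empty bins beside them. The number of runs depended on the grid. Moved by 0.5 Mb, it gave 10 runs, again with 70 dense bins. Joining peaks up to 1 kb apart on the first grid gave 10 runs with 53 dense bins.

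The densest stretch of the list was the pair on chromosome 10 from 79 to 81 Mb. Its bins held 63 and 41 peaks, together 104, or 11.6% of the 899 peaks of chromosome 10, and the bins on either side held 4 and 7. A peak there had its nearest neighbour at a median of 6.41 kb, and 67.3% (57.8 to 75.6%) had one within 10 kb. The first bin was filled from end to end. Its 10 pieces of 100 kb held 2, 8, 5, 5, 6, 3, 10, 8, 10 and 6 peaks in order. The second bin held 1, 3, 4, 6, 2, 3, 4, 9, 4 and 5. The peaks of the pair had a median score of 77.4 (quartiles 62.6 and 106) and reached 252, so no peak there was among the highest 1% of autosomal scores, which begin at 326. Their median width was 403.5 bp, and 11 of them (10.6%, 6.01 to 18.0%) were under 200 bp.

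The longest run lay near the end of chromosome 11, from 115 to 121 Mb. Its 6 bins held 24, 26, 33, 22, 20 and 34 peaks, with 15 in the bin before and 5 in the bin after. The 159 peaks were 14.7% of those of chromosome 11. They lay farther apart than on chromosome 10, with the nearest neighbour at a median of 10.7 kb and 49.1% (41.4 to 56.8%) within 10 kb of another. Their scores spread less, with a median of 81.3 and quartiles of 69.5 and 99.6, and the highest was 277. Peaks under 200 bp made up 14.5% (9.84 to 20.8%).

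The same chromosome had pairs from 97 to 99 Mb and from 101 to 103 Mb. The first held 21 and 37 peaks, with a median score of 80.4, and its second bin was the third fullest of all. The second held 21 and 24, with a median score of 79.98. Chromosome 4 had pairs from 132 to 134 Mb (42 peaks, median score 79.7) and from 154 to 156 Mb (43 peaks, 81.1). Chromosome 19 had 29 and 24 peaks from 45 to 47 Mb, with 15 and 18 in the bins beside them.

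Both pairs on chromosome 7 had a nearly empty bin on at least 1 side. From 19 to 21 Mb there were 23 and 20 peaks, with 2 in the bin before and 0 in the bin after. From 28 to 30 Mb there were 20 and 27, with 1 before and 9 after, and the bin after that, from 31 to 32 Mb, was again dense with 22. These neighbouring places differed in score. The first pair had a median of 72.8 and the second 89.0.

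The other runs were pairs of 43 to 49 peaks. They lay on chromosome 2 from 167 to 169 Mb (45 peaks), chromosome 5 from 122 to 124 Mb (49), chromosome 8 from 122 to 124 Mb (43), chromosome 12 from 109 to 111 Mb (43), chromosome 15 from 99 to 101 Mb (45) and chromosome 17 from 27 to 29 Mb (46). The pair on chromosome 5 had the highest median score of the 15 runs, 90.3, and also the widest span of quartiles, from 62.7 to 153. The pair on chromosome 12 had the largest share under 200 bp, 23.3%, with a wide interval of 13.2 to 37.7%.

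Outside the runs, the fullest dense bins were on chromosome 5 from 115 to 116 Mb (31 peaks), chromosome 4 from 151 to 152 Mb (30), chromosome 10 from 126 to 127 Mb (29) and chromosome 15 from 85 to 86 Mb (29). The bin on chromosome 15 was the most uneven of these. Of its 29 peaks, 9 lay in the piece from 400 to 500 kb after the bin's start, and the piece from 200 to 300 kb held 0.

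Inside the bins the peaks were spread rather than packed in a single spot. The median dense bin had a peak in 9 of its 10 pieces of 100 kb, 22 bins had one in all 10, and the fewest was 6. The fullest piece held a median of 21.6% of the bin's peaks, between 14.3 and 40%. The longest stretch with no peak midpoint had a median of 165 kb. It was longest, at 479 kb, in the bin of chromosome 7 from 19 to 20 Mb, and shortest, at 78.98 kb, in the second bin of the chromosome 10 pair. Peaks covered 0.981% of the sequence of the dense bins and 0.210% of the other bins. That difference follows mostly from the rule, which chose the bins by their number of peaks.

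**Figure D4:**
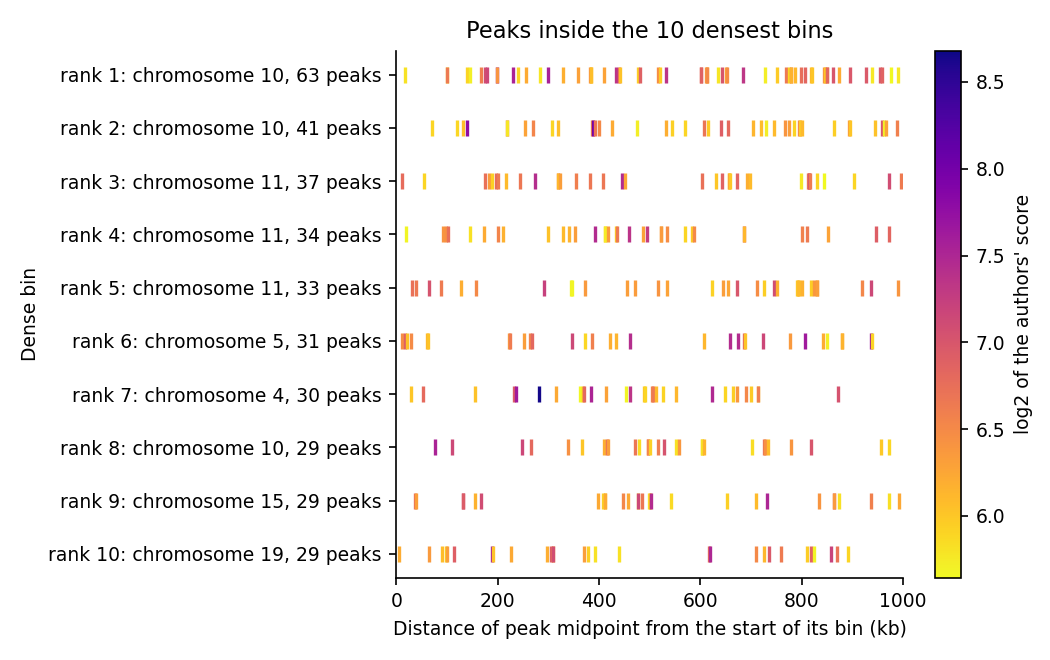
Midpoints of the peaks in the 10 fullest bins, as distance in kb from the start of the bin (horizontal axis), 1 row per bin, coloured by log2 of the authors' score. The peaks reach across the bins, and groups and empty stretches alternate. The highest score among them, 402, is in the bin of chromosome 4.

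At short range many of these peaks were still neighbours. Of the 1714, 805 (47.0%, 44.6 to 49.3%) had another peak within 10 kb, against 24.9% (24.2 to 25.7%) of the other autosomal peaks, a difference that follows in part from the rule. Within 1 kb it was 14.5% (12.9 to 16.2%) against 9.37% (8.89 to 9.88%). The nearest neighbour lay at a median of 11.3 kb, against 34.0 kb. Chained at 10 kb, 910 of the peaks stood single, 502 were in 251 pairs, and 265 were in 82 groups of 3 or 4. Groups of 5 or more numbered 7, with 37 peaks (2.16%). The autosomes had 22 such groups in all, so 15 of them lay outside the dense bins.

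The 2 largest of these groups had 6 peaks each and differed in make-up. The group on chromosome 15, from 76002688 to 76024469, spanned 21.8 kb and held no peak under 200 bp. Its scores, in order of position, were 101, 61.9, 100.4, 65.1, 75.2 and 79.98, and its widths 722, 399, 369, 427, 377 and 299 bp. The group on chromosome 12, from 109458623 to 109488274, spanned 29.7 kb. It alternated wider, low-scoring peaks with 2 narrow ones, and the narrow peak from 109471775 to 109471929 scored highest, at 150.

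The tightest group of 5 was on chromosome 10, from 79600845 to 79613543, with 5 peaks in 12.7 kb that covered 15.7% of it. Its scores ran from 70.4 to 118. A second group on chromosome 10, from 79768928 to 79787723, had scores from 58.7 to 101. The group on chromosome 4, from 132562952 to 132576994, had the widest spread of scores, from 50.8 to 293. The top value belonged to a peak of 955 bp, and the lowest to a peak of 405 bp next to it. The group on chromosome 11, from 98175315 to 98200421, had a median score of 99.1, and that on chromosome 15, from 99409318 to 99427248, one of 66.5.

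Peaks in dense bins scored slightly lower than the other autosomal peaks and were slightly wider. Their median score was 81.4, with quartiles of 65.7 and 112, against 87 for the other 13373, with quartiles of 67.0 and 127. Their median width was 390 bp (quartiles 301 and 475), against 365 bp (223 and 448). The quartile ranges of the sets overlapped widely in both measures. Of the 70 dense bins, 48 had a median score under the autosomal median of 86.18, and 20 had one above it. No such count is given here for the other bins. Divided at the autosomal quartiles of score into 4 classes, 26.4%, 29.1%, 25.2% and 19.3% of the peaks fell in the lowest to the highest of the 4 classes.

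The sets also differed in their share of narrow peaks. Of the peaks in dense bins, 245 (14.3%, 12.7 to 16.0%) were under 200 bp, against 22.7% (22.0 to 23.4%) of the others. In 57 of the 70 dense bins the share was under 22.7%, and 3 bins had no narrow peak. The matching counts for the other bins are not given here, so these counts alone do not set dense bins apart. Narrow peaks score high in this list, with a median of 134 in dense bins and 140.2 elsewhere. Among peaks of 200 bp or more the scores of both sets nearly met, with medians of 78.3 and 78.7. In finer classes of width the medians in dense bins and elsewhere were 80.4 and 80.7 from 200 to 300 bp. From 300 to 400 bp the medians were both 69.5, from 400 to 500 bp they were 72.3 and 72.8, and from 500 to 700 bp they were 93.5 and 93.2. The gap was larger at 700 bp and above, where 89 peaks in dense bins had a median of 149.8 and 619 others one of 153.

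The share of narrow peaks was lower in each fuller class of bins. It was 28.4% (26.6 to 30.4%) in bins with 1 to 4 peaks, 23.6% (22.4 to 24.8%) with 5 to 9, 22.1% (20.9 to 23.4%) with 10 to 14, 17.6% (16.1 to 19.1%) with 15 to 19, and 14.3% in the dense bins. The median score was ordered in the same way, from 88.5 over 88.3, 87.0 and 83.1 to 81.4. For peaks of 200 bp or more it showed no such order, with 76.6, 79.8, 78.99, 77.96 and 78.3. Median width was 337 bp in the sparsest class and 390 bp in the dense bins.

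**Figure D5:**
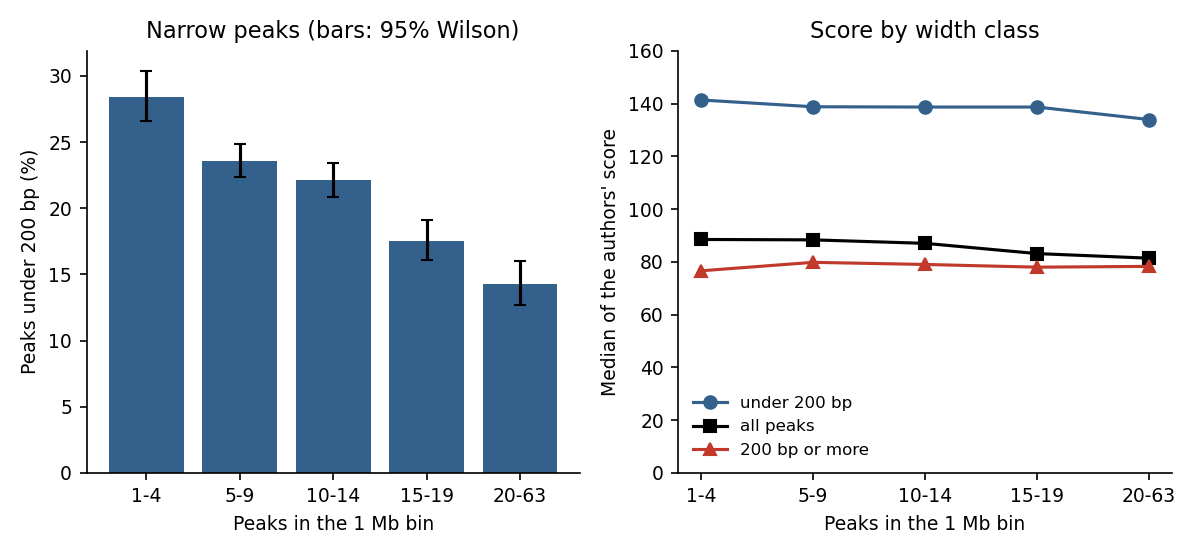
Left, the share of peaks under 200 bp (bars, percent, with 95% Wilson intervals) by the number of peaks in the bin. Right, the median score of peaks under 200 bp (circles), of all peaks (squares) and of peaks of 200 bp or more (triangles) for the same classes. The share runs from 28.4 down to 14.3%, while the median of the wider peaks stays between 76.6 and 79.8.

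In numbers per Mb, both kinds of peak were more frequent in dense bins, but not equally. Narrow peaks stood at 3.5 per Mb against 1.29 in the other bins, a ratio of 2.71, and wider peaks at 21.0 against 4.38, a ratio of 4.79. The rule counted both kinds. To separate the choice of the bins from what was counted, bins were also chosen with 20 or more peaks of at least 200 bp. This gave 35 bins, which by construction are all among the 70. Narrow peaks, which this choice did not use, stood there at 2.57 per Mb (exact Poisson interval 2.07 to 3.16, counting error only) against 1.34 elsewhere, a ratio of 1.92. Of the 35 bins, 32 had at least 1 narrow peak, but the share of other bins with 1 or more is not given here. Turned round, the 87 bins with 5 or more narrow peaks held 10.7 wider peaks per Mb (10.1 to 11.5) against 4.64 elsewhere, a ratio of 2.31. Only 21 of those 87 were dense bins.

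Crowding was found for high- and low-scoring peaks alike when each was used to choose bins for the other. The 86 bins with 10 or more peaks at or above the median score held 9.90 lower-scoring peaks per Mb against 2.86 elsewhere, a ratio of 3.46. The 131 bins with 10 or more lower-scoring peaks held 8.16 higher-scoring ones per Mb against 2.82, a ratio of 2.89. These thresholds were chosen after the data were seen.

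Dense bins held few of the strongest peaks of the list. The highest 1% of autosomal scores, from 326 upwards, belonged to 151 peaks. Of these, 9 (5.96%, 3.17 to 10.9%) lay in dense bins, which held 11.4% of all autosomal peaks. The 151 include peaks of the bins left out at chromosome starts, which the rule could not take. The low share was not particular to dense bins. Such peaks made up 0.525% (0.276 to 0.995%) of the peaks in dense bins and 0.565% (0.337 to 0.947%) in bins with 15 to 19. In bins with 1 to 4, 5 to 9 and 10 to 14 peaks they made up 0.842%, 1.37% and 0.827%. With the bins at chromosome starts left out, none of the 10 highest autosomal peaks lay in a dense bin, 6 of the highest 100 did, and 77 of the highest 1000. Of the 45 autosomal peaks over 1200 bp wide, 1 did.

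The highest-scoring peak in a dense bin lay on chromosome 11 from 53981681 to 53982147, in a bin of 20. It was 466 bp wide, scored 585, ranked 24 among the autosomal peaks and had no other peak within 66.6 kb on either side. The next were a peak of 160 bp on chromosome 5 (123765411 to 123765571, score 422) and one of 192 bp on chromosome 4 (151280736 to 151280928, score 402). Chromosome 7 had a peak of 353 bp from 4846959 to 4847312 with a score of 381, only 1.85 kb from another, and one of 294 bp from 20525328 to 20525622 with 345. Chromosome 10 had a peak of 1002 bp from 61158253 to 61159255 with 379.

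The remaining 4 of the top 10 were a peak of 199 bp on chromosome 5 (122678799 to 122678998, score 358), one of 166 bp on chromosome 8 (123392430 to 123392596, score 341), one of 178 bp on chromosome 4 (43620217 to 43620395, score 338) and one of 920 bp on chromosome 15 (79572419 to 79573339, score 321). Of the top 10 peaks, 5 were thus under 200 bp, and 9 lay more than 10 kb from the nearest neighbour.

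The widest peak in a dense bin measured 1318 bp, on chromosome 5 from 122161381 to 122162699, with a score of 310. The next 4 in width were between 1103 and 1186 bp. They lay on chromosome 5 (115017322 to 115018508, score 120), chromosome 10 (79197875 to 79198995, score 200.5), chromosome 4 (133842782 to 133843897, score 159) and chromosome 17 (27340455 to 27341558, score 126). Apart from the first, these wide peaks scored from 120 to 200.5.

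From bin to bin the median score ran from 67.3 to 104, with a middle value of 80.7. Both ends were on chromosome 7. The lowest was the bin from 52 to 53 Mb, where 28 peaks had quartiles of 57.2 and 75.8 and 1 was under 200 bp. The highest was the bin from 28 to 29 Mb, where 20 peaks had quartiles of 79.5 and 126 and 3 were under 200 bp. This bin was also the most packed, with 8 of its 20 peaks (40%) in 1 piece of 100 kb. The share under 200 bp ran from 0% in bins on chromosomes 7, 8 and 17 to 40% (21.9 to 61.3%) in the bin of chromosome 6 from 72 to 73 Mb. With 20 to 63 peaks a bin, the intervals of single bins are wide.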

How the data were processed

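Ehf ChIP and input libraries, 1 of each, were grouped by their titles. Per the submitters' processing notes, Bowtie 0.12.7 and bedtools 2.11.2 were used with build mm9. Peak names begin with MACS_peak, while version, settings and use of the input for that caller were not given in the sources used here. The deposited list has a chromosome, start, end, name and the authors' score per peak, with no header. The score was used only to describe and rank peaks. Depth is unknown. Positions are printed as in the file, so a start may be off by 1 bp. Each peak ended within its mm9 chromosome (GenomeInfoDb 1.38.1), while 91 ended beyond those of mm10.

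The members, thresholds and named regions were chosen with earlier results of these data known. Named are the 10 fullest bins, the runs, the bins of extreme median score, the 10 highest and 5 widest peaks and groups of 5 or more peaks chained at 10 kb. Gaps were measured edge to edge. Peaks were not resampled, and the computation was tested on a simulated list. Genes, promoters and motifs need an mm9 annotation or genome and are not analysed here. Python 3.11.15, numpy 2.4.6, pandas 2.3.3, scipy 1.17.1 and matplotlib 3.10.9 were used.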

Additional observations from a re-analysis of the deposited data

How the results depend on the processing

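Peaks in dense bins kept a lower median score and a larger median width than the other autosomal peaks in each alternative run, but the sizes depended on narrow peaks. The score difference of -5.64 became -0.465 among peaks of 200 bp or more and -1.08 (width difference 9 bp, against 25) when narrow peaks were left out before binning, which gave 866 peaks in 35 bins and 5 runs. It was -7.87 over the medians of bins. With 15 or more peaks per bin there were 4191 peaks in 219 bins with 45 runs, 16.2% narrow and 38.8% with a neighbour within 10 kb. With 25 or more there were 599 peaks in 19 bins with 2 runs, and 54.9% had such a neighbour. Only peaks at or above the median score gave 50 peaks in 2 bins with 0 runs, differences of -13.2 in score and 83 bp in width, 22% narrow and 42% with a neighbour. Joining peaks up to 1 kb apart gave 40.1% with a neighbour. Any 1 Mb window gave 3596 peaks and 40.3%. Neighbours within 5 and 50 kb gave 31.1% and 91.7%, and narrow limits of 180 and 250 bp gave 12.3% and 17.7%. The ratio of narrow peaks per Mb of 2.71 became 1.92 in bins chosen on wider peaks. Fewer peaks enter several of these settings by construction, and beyond that the cause was not tested. The share of dense bins in the last 25% of a chromosome ran from 45.7 to 58.8%. Leaving out chromosome 11 gave 50.9%, and leaving out the chromosome 10 pair moved no difference or share beyond its interval. The windows, those omissions and the bins chosen on wider peaks were added after the data were seen. No paired analysis was possible because a single library stands behind the list. The settings for genes and transcription starts were not run. Regions under the authors' threshold at this unknown depth are missing from every count.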

Other observations

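Score values repeat in the list. Among the 1714 peaks in dense bins, 48 have the score 59.49, 37 have 69.53, 26 have 79.98, 17 have 90.8 and 16 have 101.97. On all autosomes these values occur 350, 276, 192, 151 and 89 times. None of the peaks with these scores is under 200 bp wide, in dense bins or on the other autosomal stretches. Narrow peaks repeat other scores. The 245 under 200 bp in dense bins have 169 distinct scores, and the 3037 elsewhere have 821. Among peaks of 200 bp or more, the 1469 in dense bins have 1049 distinct scores and the 10336 elsewhere have 4732. The 48 peaks with the score 59.49 are 281 to 566 bp wide. The 5 scores named above cover 9.80% of the 1469 peaks of 200 bp or more in dense bins and 8.84% of the 10336 elsewhere. They were picked as the most frequent in dense bins, a choice that favours the first share. Small differences between median scores are therefore read on a scale with frequent ties.

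The bin of chromosome 9 from 3 to 4 Mb, left out as a chromosome start, held 26 peaks and would have ranked among the 20 fullest. The 76 bins left out held 120 peaks together.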
